A study of Mus musculus with 9 samples.

Results

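Genes of epithelial signalling, 10 in number, were followed in cultured mouse salivary and oral epithelial cells: 7 chemokines, Cxcl1, Cxcl2, Cxcl5, Cxcl16, Ccl2, Ccl20 and Cx3cl1, and 3 cytokines of the IL-1 family, Il1a, Il1b and Il33. They were picked by symbol, and all 10 are among the 23366 gene entries of the count tables. Chemokines are secreted or shed proteins that draw leukocytes along a gradient, and epithelia release them at sites of injury or infection. The CXC ligands with a glutamate-leucine-arginine motif, among them Cxcl1, Cxcl2 and Cxcl5, act on neutrophils, whereas most CC ligands act on monocytes, lymphocytes and dendritic cells. Il1a and Il33 are held in the cell and act as alarm signals once it is damaged, and Il1b has to be cleaved, for example by caspase-1, before it is active.

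The study set out to describe mSGc, a spontaneously immortalized epithelial line from the submandibular glands of 12-week-old male C57BL/6 mice. RNA was sequenced from mSGc at passages 2, 4, 10 and 25 (P2, P4, P10 and P25), and from immortalized mouse oral keratinocytes (IMOK), also a spontaneously immortalized line from 12-week-old C57BL/6 mice. All 4 passages were sampled in a medium the labels call progenitor medium, and P10 and P25 also in one they call differentiating medium. These were taken to be the 2 media of the study's methods, the serum-free medium (SFM) in which the cells were started and the serum-containing medium (SCM), a match that no label states. SFM was DMEM and Ham's F12 with penicillin, streptomycin, human epidermal growth factor, human fibroblast growth factor, N2 supplement, insulin and dexamethasone. SCM was the same base with fetal bovine serum, retinoic acid, human epidermal growth factor, triiodothyronine, glutamax, hydrocortisone, insulin, transferrin, sodium selenite and normocin. IMOK were kept in a medium of their own, whose contents are not given in the sources used here, and were labelled early passage. The study, by contrast, describes them as matched in passage to the P10 libraries of mSGc. RNA was extracted with the Direct-zol kit and libraries were made with the TruSeq kit from 1 ug of total RNA. There were 4 SFM libraries, 2 SCM libraries and 3 IMOK replicates, and no mSGc condition had a second library. Nothing says that the IMOK replicates came from separate cultures, so p-values measure only the spread between these samples, which may be technical.

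Total counts ran from 6237884 in P25 SCM to 18444963 in IMOK replicate 1, and a count of 0 allowed up to 3 counts, or 0.481 and 0.163 CPM (counts scaled to the library total) in those libraries, counting error only. IMOK replicate 1 stood apart: a chi-square of the counts over its degrees of freedom was 149.6 and 179.7 against replicates 2 and 3, and 21.3 between those. Calls and directions between the lines that turned on it are therefore also given without it. All 9 libraries had the keratins of epithelial cells, with 8 of 8 epithelial markers at 1 TPM (counts scaled to gene length and library total) or more and a summed level between 10074 and 24164 TPM, led by Krt5, Krt14 and Krt8 with means of 5695, 5477 and 2198 TPM. Of 12 leukocyte markers none reached 1 TPM in any library: their summed level was at most 1.29 TPM, Fcer1g was the most abundant on average, ahead of Lyz2 and Cd79a, and Emr1 and Cd3e were at 0 in all 9. Endothelial markers, 6 in number and led by Pecam1, Kdr and Tek, also stayed under 1 TPM, with sums of at most 0.966 TPM. Of the acinar genes in mSGc, Smgc was at 1.40 and 1.76 TPM in P2 and P4 SFM and at 0 later, Bhlha15 and Muc19 were at most 0.478 and 0.519 TPM, Amy1 was at most 3.38 TPM and Aqp5 was between 1.40 and 20.9 TPM.

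Levels between genes were compared as TPM. By the mean over 9 libraries the order was Cxcl1, Cxcl16, Cx3cl1, Cxcl5, Il33, Il1a, Ccl2, Ccl20, Cxcl2 and Il1b. Cxcl1 was the most abundant of them in every library and made up between 51.0% and 88.2% of their summed TPM. Together with Cxcl16 and Cx3cl1 it made up at least 85.3%. Neighbours in the order had overlapping ranges over the libraries, and Il1b never reached 1 TPM.

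**Figure D1:**
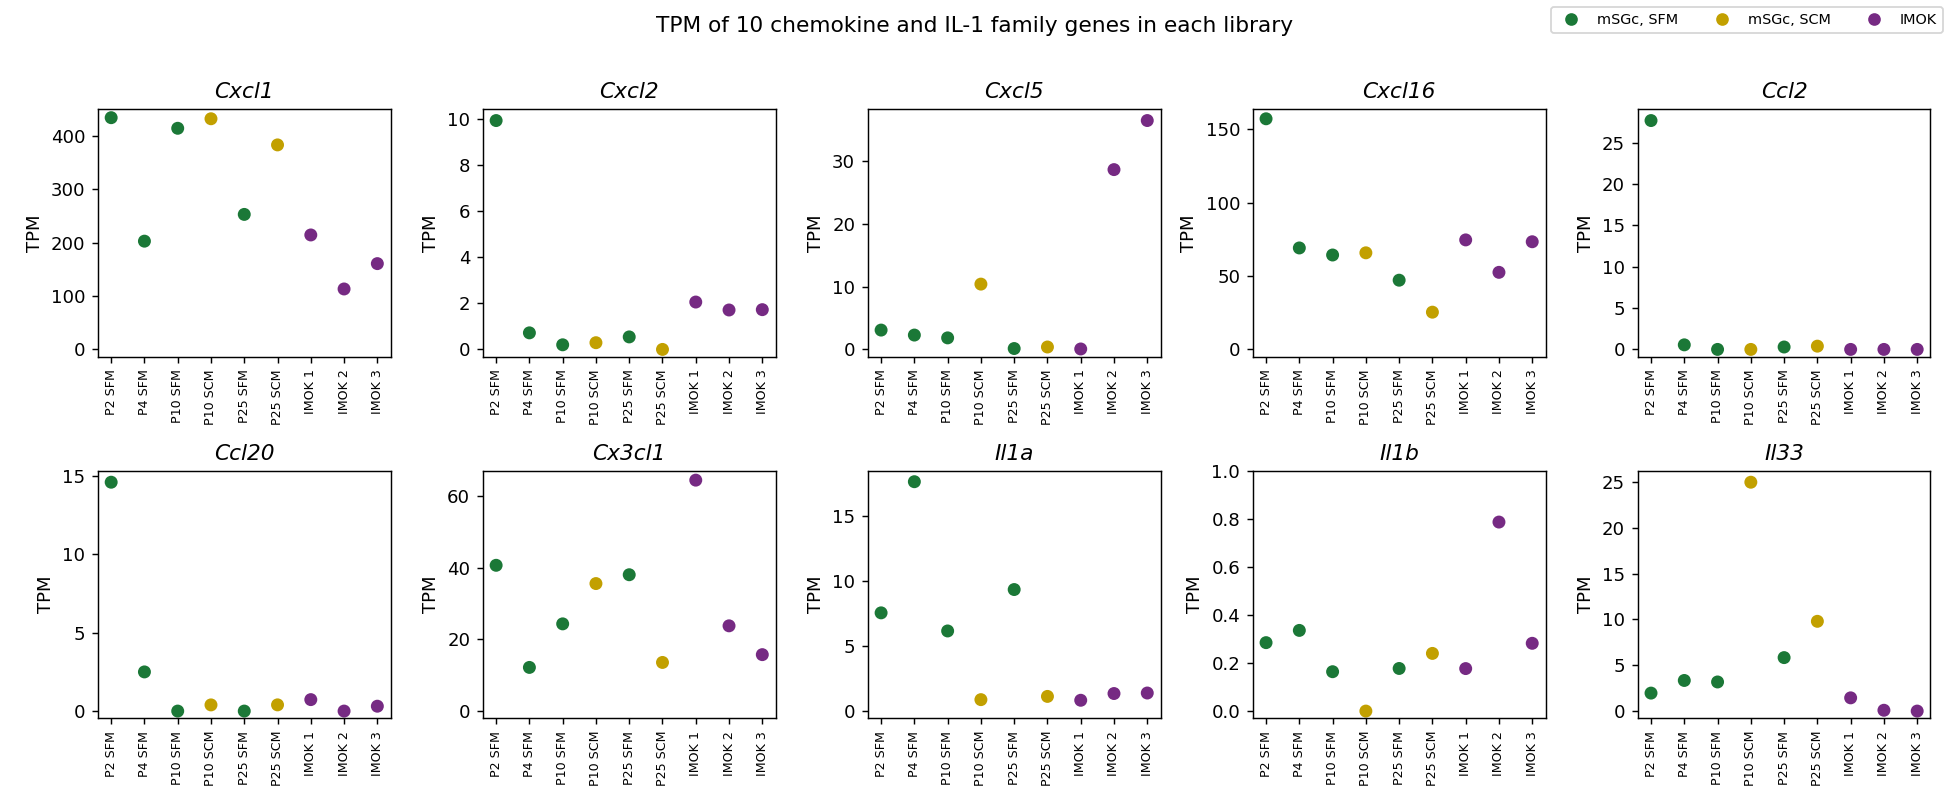
TPM of each of the 10 genes (vertical axis, linear, a different range for each gene) in the 9 libraries (horizontal axis), 1 point a library, green for mSGc in SFM, yellow for mSGc in SCM and purple for IMOK. Ccl2, Ccl20 and Cxcl2 peak in P2 SFM at 27.7, 14.6 and 9.94 TPM, and Cxcl5 in IMOK replicates 2 and 3 at 28.7 and 36.5 TPM.

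The first question was whether the 2 epithelial lines differ in these genes. It was asked with 6 mSGc libraries against 3 IMOK libraries, in which line, medium and experiment cannot be told apart. In edgeR's quasi-likelihood fit, with p-values adjusted over 12885 genes, 1 of the 10 genes, Cxcl1, was higher in mSGc at an adjusted p under 0.05, beside 6.58% of all genes tested. No member was lower, beside 8.30% of all genes. At an unadjusted p under 0.05 there were 3, Cxcl1, Il1a and Il33, all higher, beside 30.4% of all genes in either direction. DESeq2 called the same 3, beside 22.5% of all genes, and limma voom called Cxcl1, beside 16.6%. With 10 genes these counts are not set apart from the shares of all genes. Of the 10, 7 passed the filter on low counts, and Ccl2, Ccl20 and Il1b did not. Cxcl1, Il1a and Il33 are also on the study's own list of genes higher in mSGc, chosen partly on these libraries, so their direction is not independent evidence.

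Cxcl1, a neutrophil attractant that acts through Cxcr2, had 434 TPM in P2 SFM, 203 in P4 SFM, 414 in P10 SFM, 432 in P10 SCM, 253 in P25 SFM and 383 in P25 SCM, and 214, 113 and 161 TPM in IMOK replicates 1, 2 and 3. The mean was 353 ± 100.01 TPM (SD, n = 6) in mSGc and 163 ± 50.6 TPM (SD, n = 3) in IMOK. In TPM, 5 of the 6 mSGc libraries lay above all IMOK libraries, and P4 SFM lay below IMOK replicate 1. In CPM that order was reversed, at 101 in P4 SFM, the lowest of mSGc, and 94.0 in IMOK replicate 1, the highest of IMOK. The fitted difference was 1.33 on the log2 scale (SE 0.26, edgeR adjusted p = 0.00915), or 2.51-fold. It lost its call without IMOK replicate 2 (log2 fold change 1.13, adjusted p = 0.0511) and kept it under the 15 other alternatives, over which, with that one, the adjusted p ran from 1.79e-05 to 0.0511. It had an adjusted p of 0.0133 without IMOK replicate 1 and was 1.56 (adjusted p = 0.0405) with the P10 libraries of mSGc only.

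Cxcl2, its close relative and neighbour, was scarce. It had 9.94 TPM in P2 SFM and 0.720, 0.201, 0.292, 0.543 and 0 TPM in P4 SFM, P10 SFM, P10 SCM, P25 SFM and P25 SCM, against 2.06, 1.71 and 1.73 TPM in the IMOK replicates. The later 5 mSGc libraries, with at most 7 counts each, were all below IMOK, and P2 SFM, with 57, was above it. The fitted log2 fold change of 0.24 (SE 1.23, edgeR adjusted p = 0.92) turned to -1.91 without P2 SFM (adjusted p = 0.0956, and from there to 0.961 over its alternatives).

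Cxcl5, also a Cxcr2 ligand, split the IMOK libraries. Its level was 0.0709 TPM in replicate 1, on 1 count, and 28.7 and 36.5 TPM in replicates 2 and 3, on 409 and 484 counts. In mSGc it was 3.08, 2.29, 1.84 and 0.142 TPM in SFM at P2, P4, P10 and P25, and 10.4 and 0.385 TPM in SCM at P10 and P25. The highest mSGc value lay below IMOK replicates 2 and 3. The lowest, in P25 SFM on 2 counts, and replicate 1, on 1 count, rest on too few counts to be ordered. The log2 fold change of -2.77 (SE 1.25, adjusted p = 0.164) was called without IMOK replicate 1, at -3.35 (edgeR adjusted p = 0.0443, and from there to 0.744 over its alternatives). With CPM divided by edgeR's TMM scaling factors, replicates 2 and 3 held on average 521 times the level of replicate 1. The 95% counting interval was from 92.6 to 20442 on the single count of replicate 1.

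These 3 genes lie within one cluster on mouse chromosome 5 of the mm9 build. Cxcl5 is at chr5:91188325-91190651, Cxcl1 at chr5:91320271-91322141 and Cxcl2 at chr5:91332925-91334964, all on the plus strand. Between Cxcl5 and Cxcl1 lie Ppbp, Pf4 and Cxcl3, also CXC ligands, of which Ppbp and Pf4 are best known from platelets, and an entry named Il8 at no more than 0.594 TPM in any library. Ppbp was at 5.11 TPM in IMOK replicate 1 and 490.1 and 523.8 TPM in replicates 2 and 3, and in mSGc at 111.9 and 24.8 TPM in SCM at P10 and P25 against at most 2.58 TPM in SFM. Pf4 was at 0, 4.93 and 3.18 TPM and Cxcl3 at 0.811, 6.18 and 8.62 TPM in IMOK replicates 1, 2 and 3. Cxcl5, Ppbp, Pf4 and Cxcl3 were thus lower in IMOK replicate 1 than in replicates 2 and 3, while Il8, Cxcl1 and Cxcl2 were not. Pearson's r of log2(TPM + 1) with Cxcl5 over the 9 libraries, which share line and medium, was 0.826 for Ppbp, 0.761 for Pf4 and 0.796 for Cxcl3, but -0.142 for Il8, -0.463 for Cxcl1 and 0.191 for Cxcl2. These neighbours were chosen after their values were seen, and their pattern was described without a test.

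**Figure D2:**
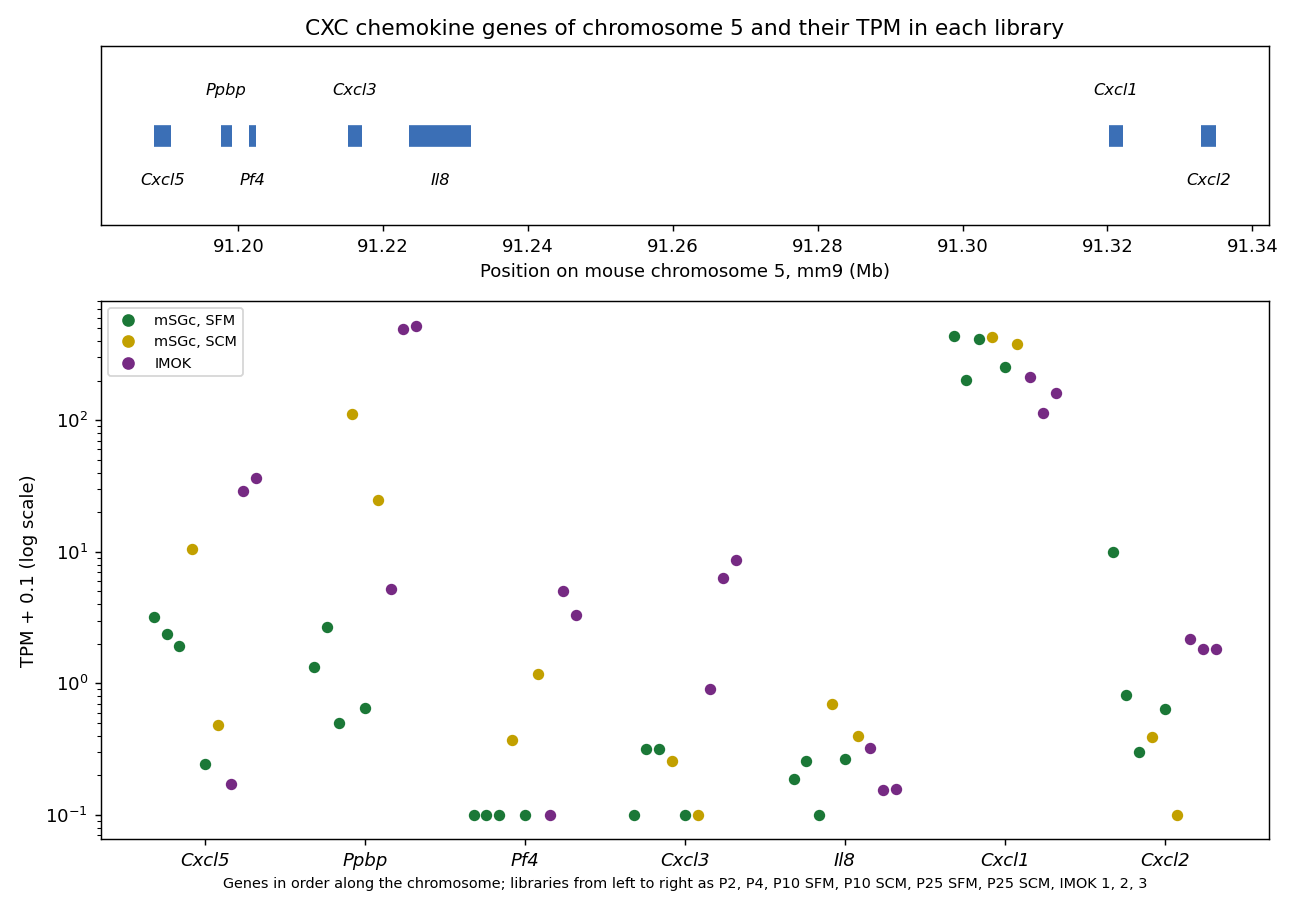
The upper panel maps 7 CXC chemokine entries on mouse chromosome 5 (mm9, Mb, to scale) and the lower panel gives their TPM + 0.1 in each library on a log axis, in genome order, coloured green for mSGc in SFM, yellow for mSGc in SCM and purple for IMOK. IMOK replicate 1 lies below replicates 2 and 3 for Cxcl5, Ppbp, Pf4 and Cxcl3.

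IMOK replicate 1 was set against the mean of replicates 2 and 3 for every gene, in CPM divided by the TMM factors. No test was made, as 1 library has no replicate. Of the 10 genes 3 were past 2-fold up in it, beside 16.3% of the genes tested, and 2 were past 2-fold down, beside 9.88%. Cx3cl1 was 2.89-fold higher on 1727 counts, and Il33 29.3-fold higher, with a 95% counting interval from 7.05 to 238.0, as replicates 2 and 3 had 2 counts together. Cxcl5 was lower, and Ccl20 and Il1b rested on at most 14 counts over the 3 libraries. The same library had 879.8 TPM of Acta2, a myoepithelial and myofibroblast marker, against 7.08 and 13.8 TPM in the other two, while Cnn1 and Myh11, of the same list, were at 0.945 and 0.0531 TPM in it. Its fibroblast markers, led by Col1a1 at 5.25 TPM, summed to 6.71 TPM against 1.34 and 1.35 TPM, with Dcn, Lum and Thy1 at 0. Their part in these differences was not tested.

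Cxcl16 and Cx3cl1 are made as membrane-bound proteins, whose chemokine domains are released by the proteases Adam10 and Adam17. Cxcl16, the ligand of Cxcr6, was at 157, 69.1, 64.3 and 47.1 TPM in SFM at P2, P4, P10 and P25, at 65.8 and 25.4 TPM in SCM at P10 and P25, and at 74.6, 52.5 and 73.3 TPM in IMOK. The IMOK values lay inside the mSGc range, and P2 SFM was highest. Cx3cl1, or fractalkine, was at 40.7, 12.2, 24.3 and 38.1 TPM in SFM, 35.6 and 13.6 TPM in SCM and 64.5, 23.8 and 15.8 TPM in IMOK. The ranges of the lines overlapped, with the highest value in IMOK replicate 1 and the lowest in P4 SFM. The log2 fold changes between the lines were 0.29 (SE 0.42, adjusted p = 0.694) for Cxcl16 and -0.07 (SE 0.48, adjusted p = 0.937) for Cx3cl1 by edgeR. That of Cx3cl1 turned to 0.63 without IMOK replicate 1 and to 0.06 without P4 SFM or P25 SCM, and its adjusted p ran from 0.404 to 0.991 over the alternatives. That of Cxcl16 turned to -0.06 without P2 SFM, and its adjusted p ran from 0.402 to 0.928. Cxcl16 at chr11:70267736-70273486 shares 363 exon bases with Zmynd15 on the other strand, at most 2.77 TPM, and their reads cannot be told apart where counting ignores strand. Adam10 and Adam17 were present throughout, at 35.0 to 98.5 TPM and 36.1 to 58.9 TPM.

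The 2 CC ligands were almost confined to the earliest library. Ccl2, the main monocyte attractant, was at 27.7 TPM in P2 SFM on 118 counts and at most 0.553 TPM, or 4 counts, in the other 8 libraries. Ccl20, which acts on Ccr6, was at 14.6 TPM in P2 SFM and 2.50 TPM in P4 SFM on 62 and 18 counts, and had at most 5 counts in any other library. Ccl2 was at 0 counts in all 3 IMOK libraries. Cxcl2 and Cxcl16 were also highest in P2 SFM. P2 SFM also held the most RNA of fibroblast markers, with 4 of 8 at 1 TPM or more and a sum of 23.1 TPM, led by Col1a2 at 9.88 TPM with Lum at 0, against sums between 0.320 and 4.48 TPM in the other mSGc libraries. Of the acinar and myoepithelial markers, 5 of 8 were at 1 TPM there with a sum of 574 TPM, led by Acta2 at 544 TPM, against sums between 11.1 and 119 TPM later in mSGc. Ccl7, a neighbour of Ccl2 in family and function, had 5.91 TPM in P2 SFM and at most 0.272 TPM elsewhere. The part of such cells in the Ccl2, Ccl20 and Cxcl2 levels was not tested, and in bulk RNA fewer cells of a type and less RNA per cell cannot be told apart. Leukocyte markers summed to 0.268 TPM in the same library, with 9 of 12 at 0, among them Ptprc.

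Among the IL-1 family members, Il1a was highest in the SFM libraries. It had 7.56, 17.7, 6.17 and 9.36 TPM in SFM at P2, P4, P10 and P25, against 0.881 and 1.13 TPM in SCM and 0.832, 1.35 and 1.39 TPM in IMOK. All 4 SFM libraries lay above the 2 SCM libraries and above IMOK, and the SCM values fell within the IMOK range. Il1a at chr2:129125346-129135708 shares 222 exon bases with Gm14023 on the other strand, at most 1.34 TPM, so that values near 1 TPM are uncertain. The log2 fold change of mSGc over IMOK was 2.84 (SE 0.97, edgeR adjusted p = 0.0764). It was called without P10 SCM (3.08, adjusted p = 0.0376), by DESeq2 (adjusted p = 0.00604) and in one fit with medium and passage terms (adjusted p = 0.0232), and ranged over the alternatives from adjusted p = 0.00604 to 0.294.

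Il33, which signals through the receptor Il1rl1, had 1.96, 3.34, 3.17 and 5.83 TPM in SFM at P2, P4, P10 and P25, 24.95 and 9.79 TPM in SCM at P10 and P25, and 1.44, 0.0891 and 0 TPM in IMOK. The 2 SCM libraries were the highest, and every mSGc library was above every IMOK library. The closest, P2 SFM on 27 counts and IMOK replicate 1 on 32, rest on too few counts to be firmly ordered. The log2 fold change between the lines was 4.23 (SE 1.31, edgeR adjusted p = 0.0546). It was called without IMOK replicate 1 (7.37, adjusted p = 0.0152), without P2 SFM (4.43, adjusted p = 0.0487), by DESeq2 (adjusted p = 0.000468) and in the fit with medium and passage terms (adjusted p = 0.0456), with adjusted p up to 0.177 under the other alternatives. Il1b, beside Il1a on chromosome 2, had at most 9 counts and 0.787 TPM in any library, so that no difference was detectable at this depth.

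Counted by overlap in TPM, 1 of the 10 genes, Il33, had all mSGc values above all IMOK values, beside 5.22% of the genes tested, and none had all values below, beside 17.0%. For Il33 the closest libraries, P2 SFM and IMOK replicate 1, had 27 and 32 counts. These TPM values were not divided by the TMM factors, and the shares of all genes in another unit were not counted. In CPM all mSGc values of Cxcl1 also lay above IMOK, at 101 or more against at most 94.0. Without IMOK replicate 1 there were 3 in TPM: Cxcl1 and Il33 above, beside 12.2% of all genes, and Cxcl5 below, beside 25.3%. With 10 genes, such counts do not set the shares apart from those of all genes. Median log2 fold changes of all genes on the members' chromosomes were -0.56 on chromosome 5, -0.55 on 19, -0.17 on 2, -0.06 on 1, -0.01 on 11 and 0.35 on 8, beside 0.00 for all genes. On chromosome 5 the estimates of Cxcl1 and Cxcl2 lay above its median and that of Cxcl5 below it. The place of Cxcl2 rested on P2 SFM: without that library its estimate was -1.91, below the median of the main fit.

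The second question was whether medium shifts these genes within mSGc. In the fit of the 6 libraries on medium and log2 passage, with 3 residual degrees of freedom, none of the 10 genes was called, beside 0.0241% of 12451 genes tested with edgeR. At an unadjusted p under 0.05 there were 3, Il1a, Il33 and Cxcl5, beside 8.18% of all genes. DESeq2 called 1, Il1a, beside 2.18%, and limma voom none, beside 0.00%. Cxcl2, Ccl2 and Il1b failed the filter on low counts. The log2 difference of SCM from SFM was -3.47 (SE 0.73, edgeR adjusted p = 0.192, DESeq2 adjusted p = 0.000607, up to 1 under the other alternatives) for Il1a, 1.92 (SE 0.52, edgeR adjusted p = 0.322) for Il33 and 2.70 (SE 0.95, edgeR adjusted p = 0.489) for Cxcl5. That of Cxcl5 was -0.16 and that of Il33 0.68 without P10 SCM. Cxcl1, Cxcl16, Cx3cl1 and Ccl20 had differences of 0.29, -0.46, -0.38 and 1.53, each with an adjusted p of at least 0.805, and moved with single libraries. That of Cx3cl1 was 0.05 without P25 SCM and 0.52 without P25 SFM, that of Cxcl1 0.48 without P10 SFM and 0.11 without P25 SFM, that of Cxcl16 -0.92 without P10 SCM and -0.08 without P25 SFM, and that of Ccl20 5.20 without P10 SCM and 0.56 without P10 SFM.

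A fit of the 4 libraries of P10 and P25 alone, with passage as a block, called none of the 10 genes, beside 1.03% of all genes, with a log2 difference of -3.06 (edgeR adjusted p = 0.0570) for Il1a and 1.69 (adjusted p = 0.307) for Il33, and an adjusted p of 0.315 for Cxcl5. The ratio of SCM to SFM, in CPM divided by the TMM factors, was taken within each passage as description. For Il1a it was 0.128 at P10 and 0.106 at P25. It was the 1 of 10 genes past 2-fold down at both passages, beside 2.29% of the genes tested, and none was past 2-fold up at both, beside 2.51%. Il33 was 7.05-fold higher in SCM at P10 and 1.48-fold at P25, and Cxcl5 5.07-fold at P10 with at most 2 counts in either library at P25. Cx3cl1 had ratios of 1.31 at P10 and 0.314 at P25, and Cxcl16 of 0.917 and 0.473. Cxcl1 differed little, with 0.935 and 1.33.

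The third question was whether passage shifts them. In the same fit none of the 10 genes was called for passage, beside 0.490% of all genes, and 3 had an unadjusted p under 0.05, Ccl20, Cxcl16 and Cxcl5, beside 13.2%. DESeq2 called 2 of these, beside 5.62% of all genes: Ccl20 (adjusted p = 0.00526, up to 0.461 under the other alternatives) and Cxcl16 (adjusted p = 0.0267, up to 1). Limma voom called none, beside 0.602%. Per doubling of the passage number the log2 slope was -2.45 (SE 0.48, edgeR adjusted p = 0.0896) for Ccl20, -0.43 (SE 0.11, edgeR adjusted p = 0.163) for Cxcl16 and -1.16 (SE 0.45, edgeR adjusted p = 0.335) for Cxcl5. That of Cxcl5 was -1.80 without P2 SFM and -0.85 without P25 SFM. The Cxcl16 level was 157 TPM at P2 and 47.1 TPM at P25 in SFM. Slopes of Cxcl1, Cx3cl1, Il1a and Il33 lay between -0.05 and 0.29, with SE of 0.12 to 0.23, and turned with single libraries. Cxcl1 was at 0.11 without P2 SFM and 0.03 without P25 SFM, Cx3cl1 at -0.08 without P4 SFM and -0.38 without P25 SFM, Il1a at 0.15 without P4 SFM and 0.04 without P10 SFM, and Il33 at -0.03 without P25 SFM. Without P2 SFM or P4 SFM, Ccl20 failed the filter on low counts and so had no slope.

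**Figure D3:**
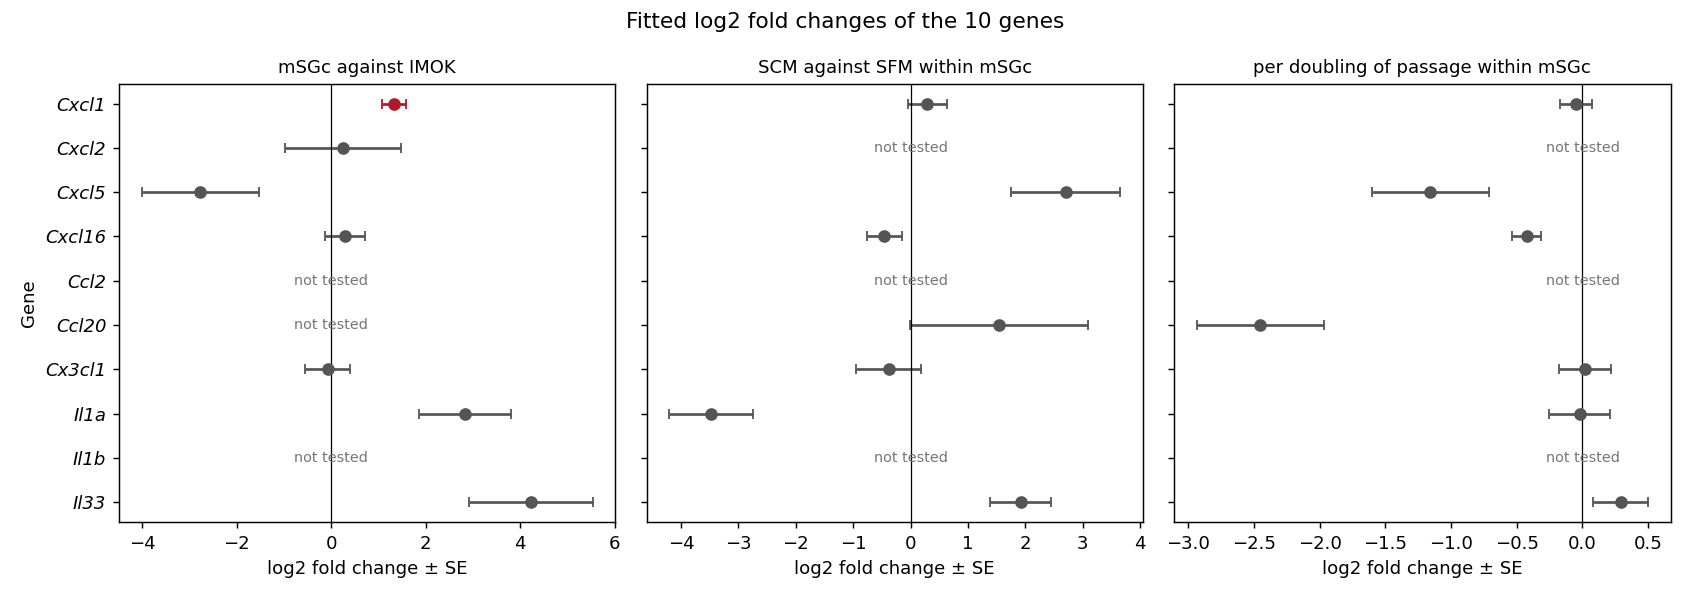
Fitted log2 fold change (horizontal axis) with its standard error (bars) for each gene (vertical axis) in 3 comparisons: mSGc against IMOK, SCM against SFM within mSGc, and per doubling of the passage number within mSGc. Red marks the 1 estimate with an adjusted p under 0.05, Cxcl1 against IMOK at 1.33.

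Of the other chemokine ligands, 31 were listed and 30 were found in the count tables by symbol, all but Cxcl15. Whether the entry named Il8 is that gene was not settled here. Between the lines 9 of the ligands were tested. Of these 3 were higher in mSGc, Ccl27a, Ccl9 and Ccl6, and 1 lower, Cxcl14. For this list and those that follow, 6.58% of all genes tested were higher and 8.30% lower. Ccl27a, Cxcl17 and Ccl6 had 0, 8 and 13 counts in IMOK. Ccl27a, a skin chemokine with near-identical copies in the mouse genome and so uncertain, was between 1.29 and 3.04 TPM in mSGc and at 0 in all IMOK libraries, at least 9.76-fold higher with the IMOK libraries set to 3 counts each. Its call held without each library in turn (edgeR adjusted p at most 0.00838) but not with the P10 libraries of mSGc only (0.0627). Ccl9 was between 1.66 and 37.5 TPM in mSGc and at most 0.694 TPM in IMOK. Its log2 fold change was 4.31 (SE 0.98, edgeR adjusted p = 0.0173), a call lost without IMOK replicate 1, 2 or 3 (adjusted p = 0.0507, 0.075 and 0.0662). Cxcl14, an epithelial CXC ligand, was between 3.14 and 18.9 TPM in mSGc and at 122, 20.4 and 22.1 TPM in IMOK, and its difference of -2.47 (SE 0.61, adjusted p = 0.0239) was lost without replicate 1 (-1.24, adjusted p = 0.15) and without P4 SFM (adjusted p = 0.0548). Cxcl17, a mucosal chemokine, was uneven, from 0 TPM in P25 SFM to 331.7 TPM in P10 SCM. Ccl6 lost its call without P4 SFM (adjusted p = 0.0616) and without any 1 of the IMOK libraries.

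Receptors for these ligands were mostly at or near 0. Of 22 chemokine receptors 2 were tested, and both were lower in mSGc. Cxcr2, the receptor of Cxcl1, Cxcl2 and Cxcl5, was between 1.21 and 2.85 TPM in mSGc and at 4.94, 9.11 and 8.03 TPM in IMOK, without overlap (log2 fold change -1.74, SE 0.39, edgeR adjusted p = 0.0157). Its call was lost without IMOK replicate 2 (adjusted p = 0.0894) or 3 (0.0662). Ackr3, listed as Cxcr7, a scavenging receptor of Cxcl12, was at most 0.652 TPM in mSGc and 37.0, 23.1 and 22.4 TPM in IMOK (log2 fold change -6.20, SE 0.47, edgeR adjusted p = 5.76e-05), and was called under all 15 alternatives that tested it. Ccr2 and Ccr6, the receptors of Ccl2 and Ccl20, were at 0 in all 9 libraries, as was Cxcr1, and Cxcr6 and Cx3cr1 were at most 0.334 and 0.0849 TPM. After Ackr3 and Cxcr2 the most abundant on average was Ackr4, listed as Ccrl1, at 0.318 TPM. The cells thus held RNA of Cxcl16, Cx3cl1 and, at P2, Ccl2 and Ccl20 with almost none of the matching receptors.

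On the IL-1 side, 3 of 7 other ligands were tested and 1 was called, Il36g, listed as Il1f9, lower in mSGc with a log2 fold change of -2.30 (SE 0.41, edgeR adjusted p = 0.00559) and called without each library in turn. It was between 0.773 and 1.85 TPM in mSGc and at 12.5, 4.86 and 5.91 TPM in IMOK. Its receptor Il1rl2 moved alike, at most 2.03 TPM in mSGc and at 37.8, 16.2 and 11.3 TPM in IMOK (log2 fold change -4.56, SE 1.01, edgeR adjusted p = 0.0153), called under all 15 alternatives that tested it. Il18 was the most abundant on average, at 18.9 to 30.2 TPM in IMOK and 2.57 to 21.4 TPM in mSGc, and Il1rn, the receptor antagonist that opposes Il1a, was at 0.788 to 5.92 TPM, above Il18 in P25 SFM and P25 SCM. Neither was called.

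The receptors and signalling proteins of the family numbered 16, of which 14 were tested: 4 were higher in mSGc, Irak4, Myd88, Il18r1 and Il1rap, and 2 lower, Il1rl2 and Il1r1, with a median log2 fold change of 0.08, beside 0.00 for all genes. Il1r1, which binds Il1a and Il1b, was between 4.09 and 16.5 TPM in mSGc and at 44.5, 19.1 and 22.0 TPM in IMOK (log2 fold change -1.67, SE 0.40, edgeR adjusted p = 0.0213). This call was lost without IMOK replicate 1 (-1.29, adjusted p = 0.0748) or 3 (adjusted p = 0.0508). The shared adaptor Myd88 was at 25.9 to 41.8 TPM in mSGc and 27.0, 15.8 and 17.0 TPM in IMOK, with P25 SCM below IMOK replicate 1, and 1.06 higher on the log2 scale (SE 0.21, adjusted p = 0.0104), and its kinase Irak4 1.21 higher (SE 0.25, adjusted p = 0.0118). Both were lost without IMOK replicate 2, at an edgeR adjusted p = 0.0642 for each. Il1rap, the common co-receptor, was 0.74 higher (SE 0.16, adjusted p = 0.0158), lost without IMOK replicate 2 (adjusted p = 0.0782) or 3 (adjusted p = 0.0587), and Il18r1 lost its call without 7 of the 9 libraries in turn, all but P25 SFM and P25 SCM. Il1rl1, the receptor of Il33, was at most 0.244 TPM in any library. Irak1 and Tollip were the most abundant on average, between 33.6 and 61.2 TPM.

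Among 13 genes of processing and shedding, 10 were tested and 4 were lower in mSGc, Aim2, Gsdmd, Capn2 and Nlrp1a, with a median of -1.18. Gsdmd, which forms the pore through which mature Il1b leaves the cell, was at most 2.55 TPM in mSGc and at 16.6, 14.2 and 9.06 TPM in IMOK (log2 fold change -2.88, SE 0.48, edgeR adjusted p = 0.00431), called under all 15 alternatives that tested it. Capn2, a subunit of calpain, which cleaves the Il1a precursor, was -1.18 (SE 0.26, adjusted p = 0.0145), lost without IMOK replicate 2 (adjusted p = 0.056) or 3 (0.0573). Capn2, Capn1 and Adam10 were the most abundant of the list on average, with means of 190.4, 89.3 and 68.2 TPM. Aim2 was high in IMOK replicate 1 alone, at 21.7 TPM against at most 0.731 TPM in any other library, and without it had a log2 fold change of -0.79 (adjusted p = 0.444). Nlrp1a lost its call without 6 of the 9 libraries, all but P10 SFM, P25 SFM and IMOK replicate 1.

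Of the 16 NF-kappaB subunits and inhibitors, all tested, 1 was called, Chuk, a kinase subunit of the pathway, lower in mSGc with a log2 fold change of -0.60 (SE 0.16, edgeR adjusted p = 0.0356). The median was -0.30, and DESeq2 called 5, beside 22.5% of all genes. Chuk lost its call without 5 of the 9 libraries, P4 SFM, P25 SFM, P10 SCM and IMOK replicates 2 and 3 (adjusted p up to 0.147). Rela and Nfkb1, the subunits of the classical dimer, were at 35.8 to 109.2 TPM and 42.9 to 85.1 TPM.

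NF-kappaB is the best-known activator of Cxcl1, Cxcl2 and Ccl20, and their promoters are shown for that reason, since the first pair share a cluster but differed in level. RefSeq promoters of GRCm38.p6, 250 bases before to 50 after the gene start, were found for 7 of the 10 genes: Cxcl1, Cxcl2, Ccl20, Cx3cl1, Il1a, Il1b and Il33. The NF-kappaB motif of 10 letters, searched on both strands, was in those of Cxcl1, Cxcl2 and Ccl20, beside 4.51% of all 32851 windows and 5.14% of 27025 genes. Cxcl1 (chr5:90890995-90891294) and Cxcl2 (chr5:90903649-90903948), both on the plus strand, had the same run of 11 bases, GGGAATTTCCC, which holds overlapping matches on both strands and starts 71 bases before the start of Cxcl1 and 97 before that of Cxcl2. Ccl20 (chr1:83116516-83116815, plus strand) had a match on the other strand 80 bases before its start. Capitals mark the matches, which are descriptions of letters and not sites.
Cxcl1: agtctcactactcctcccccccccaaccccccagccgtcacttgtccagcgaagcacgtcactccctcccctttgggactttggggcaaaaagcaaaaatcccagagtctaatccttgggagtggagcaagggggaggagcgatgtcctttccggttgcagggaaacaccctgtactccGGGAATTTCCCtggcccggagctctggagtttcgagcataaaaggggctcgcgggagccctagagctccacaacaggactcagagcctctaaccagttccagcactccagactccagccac
Cxcl2: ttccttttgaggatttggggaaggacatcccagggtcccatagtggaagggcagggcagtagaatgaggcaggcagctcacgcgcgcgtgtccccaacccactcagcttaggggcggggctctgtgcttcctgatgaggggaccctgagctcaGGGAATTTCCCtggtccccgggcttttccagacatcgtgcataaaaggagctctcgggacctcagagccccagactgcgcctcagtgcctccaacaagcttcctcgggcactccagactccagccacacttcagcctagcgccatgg
Ccl20: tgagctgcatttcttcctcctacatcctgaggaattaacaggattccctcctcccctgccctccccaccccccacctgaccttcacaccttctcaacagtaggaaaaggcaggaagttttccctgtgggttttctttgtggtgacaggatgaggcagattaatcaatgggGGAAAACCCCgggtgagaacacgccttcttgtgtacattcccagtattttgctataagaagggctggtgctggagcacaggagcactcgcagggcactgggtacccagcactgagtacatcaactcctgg

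Factors that control the decay of short-lived cytokine and chemokine messages were listed as 8 genes, all tested, of which 3 were higher in mSGc, Zfp36l1, Zc3h12a and Khsrp, with a median of 0.44. Zfp36l1 was the most abundant on average, ahead of Zfp36l2 and Khsrp, at 209, 162, 377 and 115 TPM in SFM at P2, P4, P10 and P25, 300.0 and 92.8 TPM in SCM and 95.9, 53.8 and 41.7 TPM in IMOK (log2 fold change 1.93, SE 0.44, edgeR adjusted p = 0.0177). The lines overlapped in P25 SCM. Its call was lost without IMOK replicate 2 (adjusted p = 0.0857) or 3 (0.077). Zc3h12a, the nuclease Regnase-1, was 1.65 higher (SE 0.43, adjusted p = 0.0305), lost without P4 SFM, P10 SFM, IMOK replicate 2 or IMOK replicate 3 (adjusted p up to 0.124), and Khsrp lost its call without 6 of the 9 libraries, all but P2 SFM, P10 SFM and P25 SFM.

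Of 18 other inflammatory genes of epithelia, 11 were tested and 3 were higher in mSGc, Tslp, Il34 and Ptgs2, with a median of 1.80. Tslp, a cytokine that primes dendritic cells and is often grouped with Il33, had 300.1, 441, 2284 and 2489 TPM in SFM at P2, P4, P10 and P25, 586 and 2567 TPM in SCM, and 111, 25.3 and 33.3 TPM in IMOK. All mSGc libraries were above IMOK, and in every library Tslp exceeded Il33. Its log2 fold change was 5.0 (SE 1.02, edgeR adjusted p = 0.0109), lost without IMOK replicate 2 (adjusted p = 0.0572) or 3 (0.0527). Ptgs2, the inducible cyclooxygenase, was 2.13 higher (SE 0.48, edgeR adjusted p = 0.0169), lost without IMOK replicate 1 (adjusted p = 0.0508) or 2 (0.0866). Il34, which is on the study's own list, lost its call without 6 of the 9 libraries, all but P25 SFM, P25 SCM and IMOK replicate 1. Lcn2 was uneven, at 334 TPM in P10 SCM and 0 in IMOK replicates 2 and 3. The classical inflammatory cytokines Tnf and Il6 stayed at or under 1.40 and 0.574 TPM.

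Over the 13 lists together 28 of 90 genes tested were called between the lines, beside 6.58% higher and 8.30% lower of all genes, and 6 of these, Aqp5, Ccl27a, Ackr3, Il36g, Il1rl2 and Gsdmd, kept their call without each library in turn. With the P10 libraries of mSGc only, the calls that held were those of Krt15, Ackr3, Il1rl2, Gsdmd, Zfp36l1, Tslp and Il34. Limma voom ended those of Ccl9, Aim2 and Il34, no filter on low counts those of Ccl6, Nlrp1a, Chuk and Khsrp, and no TMM factors those of Il18r1 and Il34. Among epithelial markers 3 of 8 were higher, Krt15, Cdh1 and Krt14, and among 8 acinar and myoepithelial markers Aqp5 was lower (-3.45, SE 0.69, edgeR adjusted p = 0.0101). Krt14 lost its call without P4 SFM or any 1 IMOK library, Krt15 without IMOK replicate 3 (adjusted p = 0.0745) and Cdh1 without IMOK replicate 2 or 3 (adjusted p = 0.0724 and 0.0501). None of the 4 fibroblast and 1 endothelial markers tested was called by edgeR, DESeq2 or voom, with 1 at an unadjusted p under 0.05. For medium none of 89 list genes was called by edgeR, against 11 at an unadjusted p under 0.05, 4 by DESeq2 and none by voom, beside 8.18%, 2.18% and 0.00% of all genes. For passage 1 was, Cnn1, a smooth muscle and myoepithelial gene, at -3.72 per doubling (SE 0.38, edgeR adjusted p = 0.0382, lost without P25 SFM at 0.177, by DESeq2 at 0.423 and by voom at 0.0621), beside 0.490% of all genes. It had no count in mSGc after P4 SFM and was not tested without P2 SFM or P4 SFM. At an unadjusted p under 0.05 there were 26, by DESeq2 15 and by voom 3, beside 13.2%, 5.62% and 0.602% of all genes.

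Genes with the most similar pattern were ranked by Pearson's r of log2(TPM + 1) over the 9 libraries, among 13306 genes that had 10 or more counts in 2 or more libraries, for each member that reached 1 TPM in 2 or more. These correlations describe points that share line, medium and depth. Ccl20 was closest to Cnn1 (r = 0.979), 4933403G14Rik (0.978) and Ptprn (0.977), and Cnn1 had 21.2 TPM in P2 SFM and at most 1.51 TPM elsewhere. Cxcl2 was closest to Gm16793 (0.976), Prnd (0.966) and Sema4f (0.966), all highest in P2 SFM. Among the genes most like Il1a were Hspb1 (0.916) and Peg12 (0.909). Il33 was closest to Cnot11 (0.979), Fam63a (0.957) and Hgsnat (0.956), and Cxcl1 to D14Abb1e (0.952), Gm10516 (0.951) and Marcks (0.946). Cxcl5 was closest to Sar1a (0.981), Amy1 (0.949) and Klf12 (0.942). Amylase was at 22.1 and 24.9 TPM in IMOK replicates 2 and 3 and 0.129 TPM in replicate 1, with at most 3.38 TPM in mSGc. Cxcl16 was closest to Rusc2 (0.960), Ccnd1 (0.940) and Arhgef3 (0.934), and Cx3cl1 to Vwa7 (0.977), Myl4 (0.925) and Dalrd3 (0.918). Between members, the highest r was 0.927, of Ccl2 with Ccl20, which rested on P2 SFM, followed by 0.818, of Cxcl2 with Cxcl16.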

How the data were processed

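RNA-seq values are raw counts per gene, deposited in 2 tables that the authors made with TopHat2 2.1.1, Bowtie2 2.2.6 and featureCounts 1.5.1 on mm9, per the labels and methods; strandedness and the handling of multi-mapping reads are not given in the sources used here. Entries numbered 23366, 27 of them turned into dates. Counts and the deposited gene length gave TPM, and library totals gave CPM. Ratios between media within a passage and between IMOK replicates used CPM divided by the TMM factors. Tests used R 4.3.3 with edgeR 4.0.16 (quasi-likelihood test, TMM, filterByExpr, Benjamini-Hochberg at 0.05 over all genes tested), DESeq2 1.42.0 and limma 3.58.1. They were run on counts simulated with the same spread for every gene, which does not show how they behave on libraries as uneven as these. Standard errors are the absolute log2 fold change over the square root of F. The fits were mSGc against IMOK (12885 genes) and medium with log2 passage within mSGc (12451 genes). With a 0 in 1 of 2 libraries a ratio used 3 counts.

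Named genes were all 10 members and, from each list, all genes called in a comparison. Also named were the 3 with the highest mean TPM per list. Up to 3 of the genes with the highest r were named for each member at 1 TPM in at least 2 libraries. Neighbours on chromosome 5 and other genes named at 0, as receptors, sheddases or relatives of members, as NF-kappaB subunits or for an uneven pattern were chosen after their values were seen. Members and lists were chosen with earlier results of these data known. The lists held epithelial, salivary acinar and myoepithelial, leukocyte, fibroblast and endothelial markers, other chemokine ligands, chemokine receptors, other IL-1 family ligands, IL-1 family receptors and signalling, processing and shedding, NF-kappaB subunits and inhibitors, mRNA decay factors and other epithelial inflammatory genes.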

Additional observations from a re-analysis of the deposited data

Results flagged for a closer look

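Among the 4 SFM libraries, 2 of the 10 genes had 1 library far from the others, measured as its gap to the nearest divided by the whole range. Both were highest at P2: Ccl2, at 27.7 TPM (gap over range 0.980), and Cxcl2, at 9.94 TPM (0.947). Ccl20, at 14.6 TPM in the same library, came just short of the limit. Chance flags about 1 in 20 groups, and these genes share the library. The rule was run on these 10 genes only, so the count has no share of all genes beside it and is not read as particular to them. P2 is also the earliest passage, so the passage and the library cannot be told apart.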

How the results depend on the processing

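Of 7 members tested between the lines, Cxcl1, Il1a, Il33 and Cxcl5 kept their direction under every alternative that tested them. The count of members called, 1, became 3 with DESeq2 and 3 in one fit with medium and passage terms, and ran from 0 to 3 when each library was left out: 0 without IMOK replicate 2, 3 without IMOK replicate 1, and 2 without P2 SFM or P10 SCM. Genes called, 1918, became 2900 with DESeq2 and 547 with P10 libraries of mSGc only (fewer libraries), and 738 to 1918 when each library was left out, the lowest without IMOK replicates 2 (738) and 3 (943). The share of calls higher in mSGc was 44.2%, against 51.7% with DESeq2 and 32.6% without TMM factors, which moved the median of all genes by -0.11. Members without overlap in TPM went from 1 to 3 without IMOK replicate 1. With all libraries kept, Cxcl1 overlapped in TPM but not in CPM. For medium, members called went from 0 to 1 with DESeq2, and genes called from 3 to 271 with DESeq2, 123 with P10 and P25 only, 1 with at least 10 counts in every library (fewer genes tested), 0 with voom, 36 without a filter, 25 with untransformed passage, and 0 to 58 when each library was left out: 0 without P2 SFM, P4 SFM, P25 SFM or P10 SCM, 12 without P25 SCM and 58 without P10 SFM. All 3 calls were higher in SCM, against 71.2% with DESeq2. For passage, members called went from 0 to 2 with DESeq2, and genes called from 61 to 700 with DESeq2, 31 with SFM libraries only, 3 with at least 10 counts in every library, 161 without a filter, 126 with untransformed passage, and 0 to 329 when each library was left out: 0 without P2 SFM or P25 SFM, 2 without P4 SFM, 31 and 32 without P25 SCM and P10 SCM, and 329 without P10 SFM. Where fewer genes or libraries do not show it, the cause was not tested. A lone SCM library left by such a fit was assumed to vary like the others.

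Estimates that were not called changed sign as follows. Against IMOK, Cxcl2 went from 0.24 to -2.64 with P10 libraries only, -1.22 with voom and -1.28 with medium and passage terms, and between -1.91 and 0.48 when each library was left out; Cx3cl1 from -0.07 to 0.014 with P10 libraries only and 0.012 with voom, and between -0.39 and 0.63; and Cxcl16 from 0.29 to between -0.056 and 0.46. For medium, Ccl20 went from 1.53 to -0.25 with untransformed passage, Cxcl5 from 2.70 to between -0.16 and 3.69, and Cx3cl1 from -0.38 to between -1.30 and 0.52 when each library was left out. For passage, Cx3cl1 went from 0.02 to -0.0022 without TMM factors and between -0.38 and 0.36 when each library was left out, where Cxcl1 ran between -0.11 and 0.11, Il1a between -0.23 and 0.15 and Il33 between -0.026 and 0.43. Slopes with untransformed passage are per passage and compare by sign only. The calls of list genes were rerun under the same alternatives, a choice made after seeing the data. Between the lines no paired analysis was possible because no mSGc condition shares replicates with IMOK. Depth limits Il1b, Ccl2, Ccl20 and Cxcl2, with few counts in most libraries.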
